A study of Mus musculus with 12 samples.

Results

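The genes described here make, sense and carry bile acids in mouse liver. They are 10 genes taken by name from a table of 53465 gene IDs: the synthesis enzymes Cyp7a1 (ENSMUSG00000028240), Cyp8b1 (ENSMUSG00000050445), Cyp27a1 (ENSMUSG00000026170), Cyp7b1 (ENSMUSG00000039519) and Hsd3b7 (ENSMUSG00000042289), the conjugating enzyme Baat (ENSMUSG00000039653), the nuclear receptors Nr1h4 (ENSMUSG00000047638) and Nr0b2 (ENSMUSG00000037583), the canalicular export pump Abcb11 (ENSMUSG00000027048) and the sinusoidal uptake carrier Slc10a1 (ENSMUSG00000021135). Of the 10, 9 had enough counts to be tested, and Hsd3b7 had 0 counts in all 12 libraries. The genes were taken by name and role, with earlier results of these data known.

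RNA of whole livers was sequenced in 12 libraries, 3 for each of 4 groups. The control mice carried floxed Pld1 (Pld1-Flox) and are given as WT in the genotype label. In the others Pld1 was deleted in hepatocytes (Pld1(H)-KO) by the series description, while their genotype label reads Pld1 knockdown. They are called KO here. Each genotype was kept on normal chow or on a high-fat diet (HFD), which by the series description lasted 20 weeks. The groups are thus the chow-fed and HFD-fed controls and the chow-fed and HFD-fed KO mice. The product of Pld1, phospholipase D1, cleaves phosphatidylcholine to phosphatidic acid, and the series title concerns its inhibition and fat accumulation in fatty liver disease. The promoter that drove Cre, and the age, sex and strain of the mice, are not stated in the labels.

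Bile acids are made from cholesterol in hepatocytes. In the classical branch CYP7A1 catalyses the rate-limiting first step and CYP8B1 adds the hydroxyl group that makes cholic acid. In the alternative branch CYP27A1 oxidises the side chain of cholesterol and CYP7B1 hydroxylates the product. The bile acid receptor FXR, encoded by Nr1h4, raises SHP, encoded by Nr0b2, and SHP in turn represses Cyp7a1 and Cyp8b1. FXR also induces the bile salt export pump BSEP, encoded by Abcb11.

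Totals were 18215008 to 22378180 counts per library. Values are CPM, the count scaled by the TMM-adjusted library size. Each adjusted p comes from the quasi-likelihood test of edgeR on all 14778 tested genes, with Benjamini-Hochberg adjustment and a threshold of 0.05. Pld1 itself measured 10.6 ± 1.28 CPM (SD, n = 3) in chow-fed controls, 7.13 ± 0.624 in HFD-fed controls, 4.03 ± 0.614 in chow-fed KO and 2.60 ± 0.575 in HFD-fed KO. KO livers had less of it than control livers, by a log2 fold change of -1.45 with HFD (SE 0.161, adjusted p = 7.54e-09) and of -1.39 with chow (SE 0.142, adjusted p = 1.08e-09). The spread between libraries of a group was small, with a common biological coefficient of variation of 3.95%, and from 0.0274% to 8.69% for single members within a group. Whether a group's 3 libraries stem from different animals is not in the labels, so the p-values cover the spread of these libraries alone, and that spread may be technical.

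In control livers HFD moved all 9 tested members, beside 37.7% of all tested genes. Cyp7b1 and Cyp7a1 fell the most, to 38.8% and 55.1% of their chow level, and Abcb11 fell to 68.6%. Nr0b2 rose 1.60-fold and Cyp8b1 1.21-fold. In KO livers on HFD, 8 of the 9 differed from control livers on HFD, beside 32.4% of all tested genes, with Cyp7b1 2.16-fold, Cyp7a1 1.87-fold, Cyp27a1 1.54-fold and Nr0b2 1.48-fold higher and Cyp8b1 at 70.4%. On chow the KO showed another order: Cyp8b1 stood at 48.7% and Slc10a1 at 70.0% of control, while Cyp7a1 and Cyp7b1 did not pass the test.

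**Figure D1:**
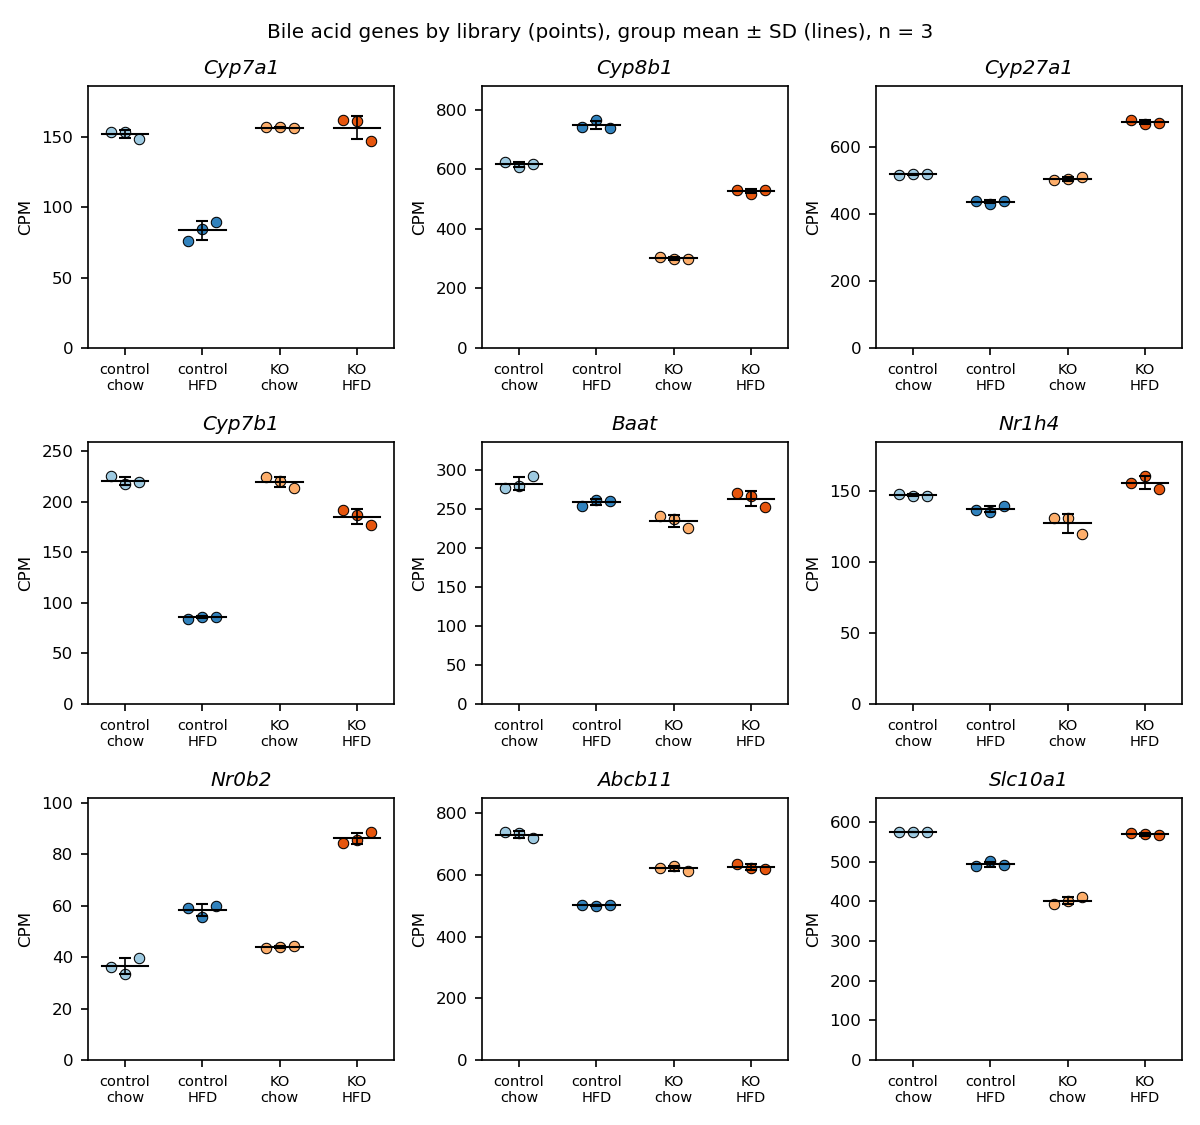
The 9 tested members are plotted in CPM, with each library as a point and each group's mean and SD (n = 3) as lines, for control and KO livers on chow and HFD. Cyp7a1 and Cyp7b1 are lowest in HFD-fed controls, Cyp8b1 and Slc10a1 are lowest in chow-fed KO, and Nr0b2 is highest in HFD-fed KO.

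Promoter sequence was read for the members with an entry in the RefSeq table of build GRCm38.p6, which were 7 of 10, with 8 start sites since Slc10a1 has 2. They are shown because several members are textbook targets of nuclear receptors. Each window of 250 bases before to 50 after the start was searched on both strands for AGGTCA, the half-site bound by nuclear receptors, for CAAGGTCA, a longer form bound by LRH-1 that contains it, for the inverted repeat of the half-site spaced by 1 base, which FXR binds and which contains it, and for TTATGNAA, the D-box bound by the clock output factors DBP, TEF and HLF. AGGTCA occurred in 3 of the 8 member promoters and in 16.3% of 32851 promoters, and TTATGNAA in 2 of 8 and in 3.38%. CAAGGTCA (1.56% of all promoters) and the inverted repeat (0.00913%) had no exact match in any of the 8. The search took exact matches alone and misses sites that differ by 1 base. Abcb11 reads aggccatTGACCT at its AGGTCA match, which differs from the inverted repeat by 1 base. The 250 bases before the start are printed for Abcb11 (chr2:69342617-69342866, minus strand), with a reverse-complement match of AGGTCA in capitals that begins 56 bases before the start, and for Cyp27a1 (chr1:74713285-74713534, plus strand), with a TTATGNAA match in capitals that begins 60 bases before it. Windows around a half-site are printed for Nr1h4 (chr10:89506856-89506881, minus strand) and the second start of Slc10a1 (chr12:80968150-80968175, minus strand). Each reads 5′ to 3′ on the gene's strand. A match is a description of the letters and not a bound site.

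Abcb11: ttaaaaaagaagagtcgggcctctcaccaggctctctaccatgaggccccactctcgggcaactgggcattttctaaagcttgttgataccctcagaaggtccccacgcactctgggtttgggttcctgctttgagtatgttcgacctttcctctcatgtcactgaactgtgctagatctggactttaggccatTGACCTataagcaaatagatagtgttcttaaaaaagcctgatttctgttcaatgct
Cyp27a1: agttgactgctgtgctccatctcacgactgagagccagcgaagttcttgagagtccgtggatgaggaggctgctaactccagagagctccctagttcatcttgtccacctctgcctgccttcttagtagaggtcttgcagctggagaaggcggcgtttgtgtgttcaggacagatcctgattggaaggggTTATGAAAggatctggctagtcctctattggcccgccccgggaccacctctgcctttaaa
Nr1h4: tgtggcattTGACCTccagccagtct
Slc10a1: caggcacagAGGTCAgaaaacttaag

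The Nr0b2, Cyp8b1 and Hsd3b7 windows held no exact match of the 4 motifs. Abcb11 and Cyp27a1, with different motifs in these windows, moved the same way in controls with HFD (-0.54 and -0.25) and in KO against control on HFD (0.32 and 0.62). Between HFD-fed KO and chow-fed control they went opposite ways (-0.22 and 0.38). The diet in KO gave 0.01, which did not pass, and 0.42, and KO against control on chow gave -0.24 and -0.04, the latter not passing. The second start of Slc10a1 held both AGGTCA and a reverse-complement TTATGNAA match that begins 4 bases before it. A link between motifs and levels was not tested.

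Cyp7a1 measured 154, 154 and 149 CPM in the chow-fed controls, 76.2, 84.8 and 90.0 in the HFD-fed controls, 157, 157 and 156 in the chow-fed KO, and 162, 161 and 147 in the HFD-fed KO. The HFD-fed controls lay below the other 9 libraries, and the HFD-fed KO overlapped both chow groups. HFD lowered it in controls (log2 fold change -0.86, SE 0.043, adjusted p = 1.38e-17), and it was higher in KO than in controls on HFD (0.90, SE 0.043, adjusted p = 7.14e-18). The difference between HFD-fed KO and chow-fed control was 0.04 (SE 0.042, adjusted p = 0.465), and between the KO groups on HFD and chow it was within 0.01 of 0 (SE 0.041, adjusted p = 1.00).

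Cyp8b1 measured 625, 609 and 619.9 CPM in chow-fed controls and 743, 766 and 738 in HFD-fed controls. In KO livers it measured 306, 298 and 298 CPM on chow and 531, 519 and 532 on HFD. No library of any group overlapped another group. The difference between KO and control was -1.04 on chow (SE 0.024, adjusted p = 1.19e-26), and with HFD it was -0.51 (SE 0.024, adjusted p = 4.36e-18). HFD raised Cyp8b1 in both genotypes, by 0.28 in controls (SE 0.024, adjusted p = 1.03e-11) and by 0.81 in KO (SE 0.024, adjusted p = 1.07e-23).

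Cyp27a1, the mitochondrial sterol 27-hydroxylase, measured 515, 517 and 519 CPM in chow-fed controls, 438, 429.9 and 439 in HFD-fed controls, 499, 502 and 509 in chow-fed KO, and 679, 667 and 670.5 in HFD-fed KO. The HFD-fed KO stood above the other 9 libraries and the HFD-fed controls below them. HFD thus lowered it in controls (log2 fold change -0.25, SE 0.023, adjusted p = 7.64e-11) and raised it in KO (0.42, SE 0.023, adjusted p = 1.30e-16). On HFD the KO exceeded the control by 0.62 (SE 0.023, adjusted p = 3.95e-21), while on chow the difference of -0.04 did not pass (SE 0.023, adjusted p = 0.224).

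Cyp7b1, the oxysterol 7-alpha-hydroxylase, measured 225, 218 and 219 CPM in chow-fed controls and 84.4, 86.0 and 86.3 in HFD-fed controls. In KO it measured 224, 220.4 and 213 CPM on chow and 191, 187 and 177 on HFD. The HFD-fed control lay far below all other libraries, and the chow groups overlapped. It fell with HFD in controls (log2 fold change -1.37, SE 0.034, adjusted p = 2.73e-26) and in KO (-0.24, SE 0.032, adjusted p = 1.42e-07). KO exceeded control on HFD by 1.11 (SE 0.034, adjusted p = 2.81e-23), and on chow the difference was -0.01 (SE 0.032, adjusted p = 0.878).

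The 2 hydroxylases Cyp8b1 and Cyp7b1 were also set against each other within each library, which removes the library's scaling. The count of Cyp8b1 over that of Cyp7b1 was 2.78, 2.80 and 2.83 in chow-fed controls, 8.81, 8.91 and 8.55 in HFD-fed controls, 1.37, 1.35 and 1.40 in chow-fed KO, and 2.78, 2.78 and 3.004 in HFD-fed KO. The ratio was thus highest in HFD-fed controls and lowest in chow-fed KO, and HFD-fed KO overlapped chow-fed control. The log2 ratio differed by 1.64 between the diets in controls, by 1.05 between the diets in KO, by -1.62 between KO and control on HFD and by -1.03 between them on chow. An exact two-sided permutation test gave p = 0.1 for each of these, the smallest that 3 against 3 libraries allow, and 0.125 after adjustment over 5 comparisons. Between HFD-fed KO and chow-fed control the difference was 0.03 (exact permutation p = 0.9, adjusted p = 0.9). This is a ratio of RNA counts and not of enzyme activity.

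**Figure D2:**
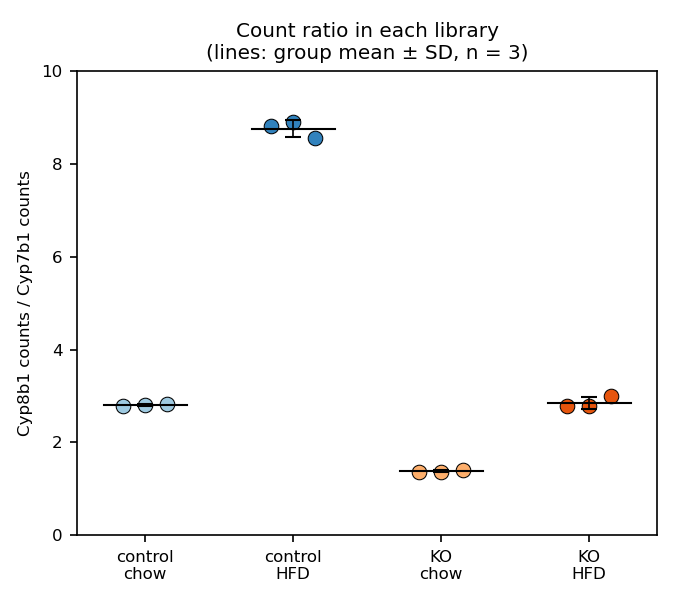
The vertical axis gives the Cyp8b1 count divided by the Cyp7b1 count in each library (points), with group means and SD (lines, n = 3). The means are 2.80 in chow-fed controls, 8.76 in HFD-fed controls, 1.37 in chow-fed KO and 2.85 in HFD-fed KO.

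Hsd3b7, which encodes the steroid dehydrogenase that acts after the 7-alpha-hydroxylases in both branches, is listed at 0 counts in all 12 libraries, and 3 counts per library, the limit that a count of 0 allows, correspond to 0.134 to 0.165 CPM. In GENCODE M21, 1717 of its 2769 exon bases (62.0%) lie in the exons of Gm49388 on the same strand, which is also listed at 0, and 1729 (62.4%) in those of 9430064I24Rik on the opposite strand, which had 31 counts over the 12 libraries. The sources used here do not give how reads in overlapping genes were counted, and the part of this overlap in the zeros was not tested. Abcb11 shares 136 exon bases with Gm13613 and 19 with Gm13614, both on the opposite strand, and the other 8 members share none.

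Baat, which joins bile acids to taurine or glycine, varied least among the tested members, with group means from 235 to 283 CPM. Its libraries measured 277, 279 and 292 CPM in chow-fed controls, 254, 262 and 260.0 in HFD-fed controls, 241, 238 and 226 in chow-fed KO, and 270.2, 268 and 253 in HFD-fed KO. The groups on HFD overlapped, and chow-fed KO lay below the rest. On chow the KO differed from the control by -0.27 (SE 0.032, adjusted p = 2.88e-08), and the difference on HFD was 0.03 (SE 0.032, adjusted p = 0.578). HFD went with a fall of -0.13 in controls (SE 0.032, adjusted p = 0.00149) and a rise of 0.17 in KO (SE 0.032, adjusted p = 8.39e-05).

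Nr1h4, the bile acid receptor, measured 148, 147 and 146 CPM in chow-fed controls, 137, 135 and 139 in HFD-fed controls, 131, 131 and 119 in chow-fed KO, and 156, 160.2 and 151 in HFD-fed KO. HFD-fed KO was highest and chow-fed KO lowest, without overlap. The changes were small: KO against control was -0.21 on chow (SE 0.036, adjusted p = 1.54e-05), and with HFD it was 0.18 (SE 0.035, adjusted p = 9.39e-05). HFD changed it by 0.29 in KO (SE 0.035, adjusted p = 2.94e-08) and by -0.10 in controls (SE 0.035, adjusted p = 0.024). The last call was lost when replicate 1 or 2 of either control group was left out, with adjusted p from 0.051 to 0.091.

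Nr0b2, the repressor induced by FXR, measured 36.1, 33.6 and 39.9 CPM in chow-fed controls, 59.3, 55.8 and 60.1 in HFD-fed controls, 43.5, 44.1 and 44.4 in chow-fed KO, and 84.3, 85.8 and 88.7 in HFD-fed KO. The order was chow-fed control, chow-fed KO, HFD-fed control and HFD-fed KO, with no overlap at any step. HFD raised it by 0.68 in controls (SE 0.052, adjusted p = 6.87e-13) and by 0.97 in KO (SE 0.049, adjusted p = 1.75e-17). KO exceeded control by 0.27 on chow (SE 0.053, adjusted p = 0.000141) and by 0.56 on HFD (SE 0.047, adjusted p = 1.42e-11). Between the HFD-fed KO and the chow-fed control it differed by 1.24 (SE 0.050, adjusted p = 4.88e-20), the largest difference of any member in that comparison.

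Slc10a1, the sodium-dependent carrier (NTCP) that takes bile acids up from blood, measured 574, 574 and 574 CPM in chow-fed controls, 488, 501 and 492 in HFD-fed controls, 393, 401 and 410.3 in chow-fed KO, and 573, 569 and 566 in HFD-fed KO. Chow-fed KO lay lowest, and HFD-fed KO lay within 10 CPM of the chow-fed controls. Against control, KO was lower by -0.52 on chow (SE 0.024, adjusted p = 1.88e-18) and higher by 0.21 on HFD (SE 0.023, adjusted p = 1.23e-08). HFD lowered it in controls (-0.22, SE 0.023, adjusted p = 2.27e-09) and raised it in KO (0.50, SE 0.024, adjusted p = 2.67e-18).

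Abcb11 measured 738, 736 and 718 CPM in chow-fed controls, 502, 499 and 503 in HFD-fed controls, 621, 627 and 614 in chow-fed KO, and 636, 622 and 619.6 in HFD-fed KO. Both KO groups lay between the control groups and overlapped each other. HFD lowered it in controls (log2 fold change -0.54, SE 0.022, adjusted p = 5.83e-20), and in KO the difference between diets was 0.01 (SE 0.022, adjusted p = 0.716). With chow the KO was lower than the control by -0.24 (SE 0.022, adjusted p = 1.95e-10), and with HFD it was higher by 0.32 (SE 0.022, adjusted p = 1.66e-13).

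**Figure D3:**
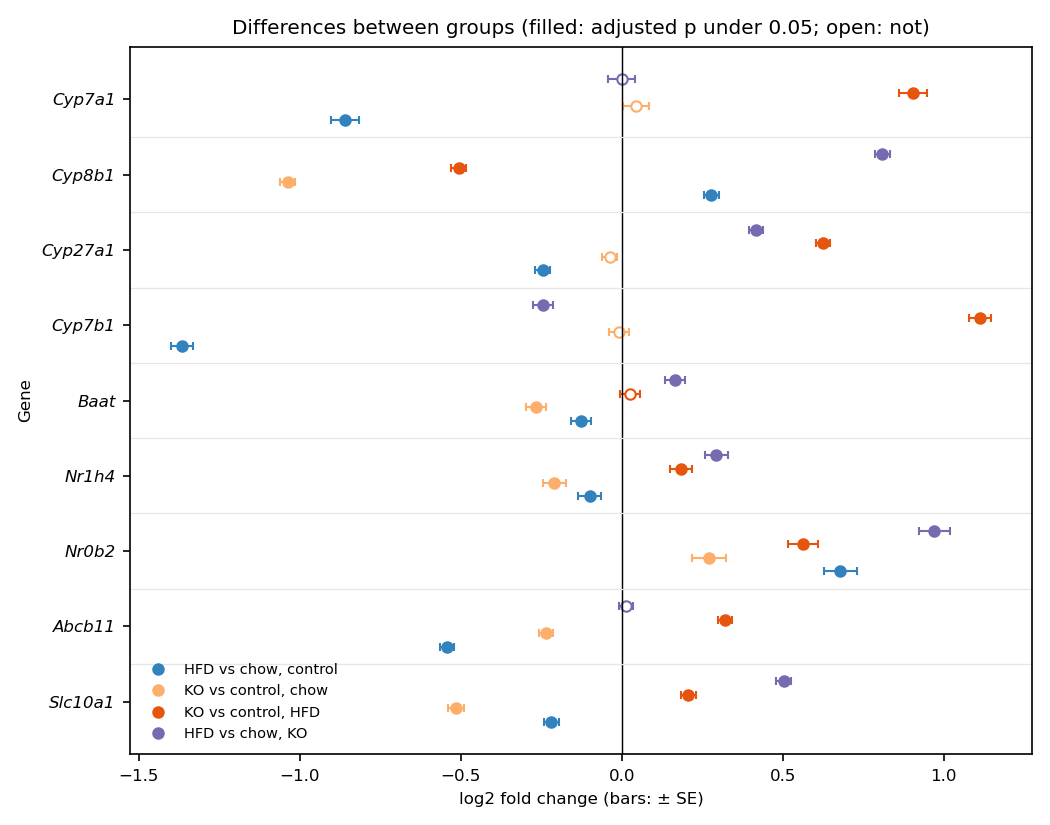
The horizontal axis gives the log2 fold change (bars, SE) of each tested member in 4 comparisons, by colour, with filled points where the adjusted p was under 0.05. KO against control on HFD is above 0 for each member except Cyp8b1 at -0.51, and the same comparison on chow is below 0 or near it for each member except Nr0b2 at 0.27.

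By count, the control diet comparison called 9 of 9 tested members (2 higher, 7 lower) beside 37.7% of all tested genes (18.8% higher, 18.9% lower). KO against control on HFD called 8 (7 higher, 1 lower) beside 32.4% (16.7% higher, 15.6% lower), with Baat not passing. KO against control on chow called 6 (1 higher, 5 lower) beside 31.2% (15.8% higher, 15.3% lower), with Cyp7a1, Cyp7b1 and Cyp27a1 not passing. The diet comparison within KO called 7 (6 higher, 1 lower) beside 36.6% (18.5% higher, 18.1% lower), with Cyp7a1 and Abcb11 not passing. HFD-fed KO against chow-fed control called 6 (2 higher, 4 lower) beside 32.2% (16.1% higher, 16.1% lower). There Nr0b2 and Cyp27a1 (0.38, SE 0.023) were higher and Cyp7b1 (-0.25, SE 0.032), Cyp8b1 (-0.23, SE 0.024), Abcb11 (-0.22, SE 0.022) and Baat (-0.10, SE 0.032) were lower, while Nr1h4 at 0.08 (SE 0.035, adjusted p = 0.0694), Slc10a1 at -0.01 and Cyp7a1 did not pass. The call of Baat there was lost without replicate 3 of the chow-fed controls (adjusted p = 0.11) or of the HFD-fed KO (adjusted p = 0.104). These comparisons share libraries and are not independent of each other. The median log2 fold change of the members was 0.32 for KO against control on HFD and -0.21 on chow, beside -0.01 and -0.003 over all tested genes.

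The members are abundant and the spread was small, so that log2 differences as small as 0.10 passed the test. With a fold of at least 1.5 also required, the calls were Cyp7a1, Cyp7b1 and Cyp27a1 for KO against control on HFD (beside 7.19% of all tested genes), Cyp7a1, Cyp7b1 and Nr0b2 for the diet in controls (12.1%), and Cyp8b1 alone for KO against control on chow (9.8%). With a coefficient of variation fixed at 20% in place of the measured spread, Cyp7a1 and Cyp7b1 passed in each of the first 2 of these comparisons and Cyp8b1 in the third.

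The effect of the KO differed between diets for all 9 tested members, beside 29.8% of all tested genes (15.2% higher, 14.7% lower), and the sign of that difference was positive for each. Of the 45 other pathway genes tested, 27 passed for the interaction (20 positive, 7 negative, median 0.13). Of the marker genes of cell types, 6 of 7 hepatocyte, 4 of 5 erythroid and 3 of 7 neutrophil markers passed, all positive (list medians 0.31, 0.61 and 0.90). The neutrophil values rest on few counts, with a sum of 0.732 to 1.08 CPM in HFD-fed controls. Passing or not, they ranged from -1.54 to 4.17. With a negative sign, 8 of 8 Kupffer cell, 6 of 8 stellate cell and 3 of 7 endothelial markers passed. Of 8 cholangiocyte markers, 1 passed with a positive and 3 with a negative sign. The part of these markers in the members' interaction was not tested. The interaction was largest for Cyp7b1 (1.12, SE 0.046, adjusted p = 2.13e-19), Cyp7a1 (0.86, SE 0.060, adjusted p = 1.95e-13) and Slc10a1 (0.72, SE 0.033, adjusted p = 4.70e-18). It was smallest for Nr0b2 (0.29, SE 0.071, adjusted p = 0.00185) and Baat (0.29, SE 0.045, adjusted p = 4.04e-06). Positive values arose in unlike ways: Slc10a1, Abcb11 and Nr1h4 were below the control on chow and above it on HFD, Cyp8b1 was below on both diets and less so on HFD, and Nr0b2 was above on both.

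Per kilobase of exon, Cyp8b1 had the highest level of the members in chow-fed controls, at 317 ± 4.20 CPM per kb (SD, n = 3), followed by Slc10a1 at 261 ± 0.0716 and Cyp27a1 at 238 ± 0.939. Baat at 146 ± 4.35 and Abcb11 at 142 ± 2.15 did not differ beyond their spread. Cyp7b1 at 102, Nr1h4 at 63.8, Cyp7a1 at 36.5 and Nr0b2 at 32.2 CPM per kb followed, the last with an SD of 2.80. The order changed with the group. In chow-fed KO Cyp27a1 came first at 232 and Cyp8b1 followed Slc10a1 at 154 CPM per kb. In HFD-fed controls Nr0b2 at 51.6 exceeded Cyp7b1 at 39.5 CPM per kb, which ranked above it in the 3 other groups.

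Beyond the 10 genes, 51 further genes of bile acid synthesis, regulation and transport were listed, of which 45 were tested. KO against control on HFD called 36 of them (19 higher, 17 lower, beside 32.4% of all tested genes) with a median log2 fold change of 0.01, and the diet in controls called 35 (23 higher, 12 lower, beside 37.7%) with a median of 0.18. On chow the KO called 32, of which 24 were lower and 8 higher (beside 31.2%), with a median of -0.15. Within KO the diet called 35, of which 30 were higher (beside 36.6%).

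Of 16 tested synthesis genes, 7 were higher and 6 lower in KO than in control on HFD (beside 16.7% and 15.6% of all tested genes). Cyp2c70, which makes the muricholic acids of mice, had the largest fall with HFD in controls, from 571 ± 2.22 to 145 ± 1.88 CPM (log2 fold change -1.97, SE 0.029, adjusted p = 1.37e-32). It measured 473 ± 5.60 in chow-fed KO and 262 ± 11.0 in HFD-fed KO, above the HFD-fed control (0.85, SE 0.029, adjusted p = 7.62e-22) and below the chow-fed control (-1.13, SE 0.028). Cyp39a1, an oxysterol 7-alpha-hydroxylase, was higher in HFD-fed KO by 0.39, as were Akr1c6, an aldo-keto reductase, by 0.35 and Slc27a5, which activates bile acids with coenzyme A, by 0.25. The acyl-CoA N-acyltransferase genes Acnat1 and Acnat2 were lower there by -0.38 each, Hsd17b4 of peroxisomal side-chain shortening by -0.21 and Cyp46a1, the cholesterol 24-hydroxylase, by -0.46. Acnat2 had the largest rise with HFD in controls at 1.23 (SE 0.041), followed by Cyp46a1 at 0.73, Cyp39a1 at 0.64 and Hsd17b4 at 0.61. Slc27a5 at -0.38, Akr1c6 at -0.27 and Akr1d1, the steroid 5-beta-reductase, at -0.19 fell with HFD in controls. On chow 12 of the 16 were lower in KO than in control (beside 15.3% of all tested genes), Akr1d1 by -0.78 (SE 0.034).

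Among 13 tested regulators, 6 were higher and 3 lower in HFD-fed KO than in HFD-fed control (beside 16.7% and 15.6% of all tested genes). The nuclear receptor genes Rxra, the partner of FXR (0.33), Nr1h3 or LXR-alpha (0.23), Nr1i2 or PXR (0.21) and Hnf4a (0.19) were higher. S1pr2, a receptor for sphingosine 1-phosphate and conjugated bile acids, measured 5.38 ± 0.278 CPM against 9.85 ± 0.793 and was lower by -0.87 (SE 0.115, adjusted p = 2.16e-07). Nr1i3, or CAR, was lower by -0.45 and Zfp36l1, an RNA-binding protein, by -0.29. With HFD in controls Nr1i3 (0.46), Nr1i2 (0.38), Rxra (0.24) and the repressor Mafg (0.20) rose, and Fgfr4, the receptor for the ileal hormone FGF15 (-0.28), Nr5a2 or LRH-1 (-0.24) and Prox1 (-0.19) fell. Fgf15 had 0 counts in all libraries, and Gpbar1 and Vdr had at most 4 counts in any group and were not tested.

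Of 16 tested carriers, 6 were higher and 8 lower in HFD-fed KO than in HFD-fed control (beside 16.7% and 15.6% of all tested genes). Slco1a1, a sinusoidal organic anion carrier, measured 261 ± 3.99 CPM in chow-fed controls, 72.1 ± 1.38 in HFD-fed controls, 199 ± 3.03 in chow-fed KO and 213 ± 7.26 in HFD-fed KO. Controls on HFD thus lay far below the other groups (diet -1.86, SE 0.033, adjusted p = 3.00e-30; HFD-fed KO 1.56, SE 0.033, adjusted p = 1.43e-27). The sterol exporters Abcg5 (0.65) and Abcg8 (0.46) and the canalicular flippase Atp8b1 (0.33) were higher in HFD-fed KO, and each had fallen with HFD in controls, by -0.46, -0.18 and -0.64. The phospholipid exporter Abcb4, which supplies the phosphatidylcholine of bile, rose with HFD in controls (0.77, SE 0.024, adjusted p = 3.68e-23) and was lower in HFD-fed KO (-0.39, SE 0.024, adjusted p = 7.44e-15). Abcc3 and Slco1a4 did likewise, at 0.25 and 0.71 with HFD and -0.39 and -0.34 in KO, and Slc10a5 was lower in KO by -0.29. Slc10a2, the apical sodium-dependent carrier of bile duct cells and ileum, measured 31.0 ± 0.849, 52.5 ± 3.31, 64.6 ± 0.989 and 63.7 ± 4.24 CPM in the same order of groups and rose with HFD in controls (0.76, SE 0.054). Slc51a and Slc51b, the basolateral exporters, had at most 16 counts in any group and were not tested.

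**Figure D4:**
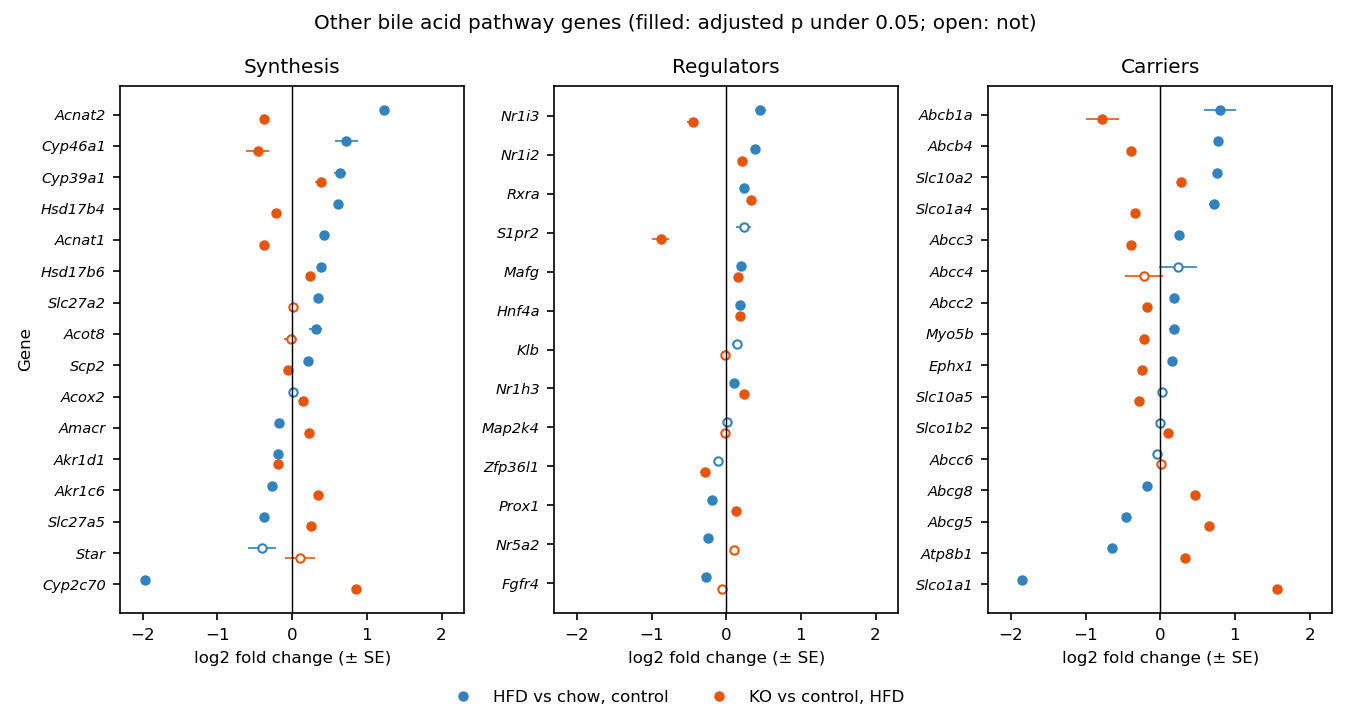
Log2 fold changes (horizontal axis, bars SE) of the other tested synthesis, regulator and carrier genes are shown for HFD against chow in controls and for KO against control on HFD, with filled points where the adjusted p was under 0.05. Cyp2c70 and Slco1a1 lie farthest below 0 for the diet, at -1.97 and -1.86, and farthest above 0 for the HFD-fed KO, at 0.85 and 1.56.

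A list of 11 hepatic FXR target genes, which includes Nr0b2, Abcb11 and Abcb4, moved in both directions: 5 of 9 tested genes were higher and 3 lower in HFD-fed KO (8 called, beside 32.4% of all tested genes), and 4 were higher and 4 lower with HFD in controls (8 called, beside 37.7%). The members Nr0b2 and Abcb11 are themselves among the 5 higher in HFD-fed KO, and with HFD in controls Nr0b2 rose and Abcb11 fell.

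Some values of other genes moved with the same groups. Of 18 clock and clock output genes, 15 passed for KO against control on HFD (10 higher, 5 lower, beside 32.4% of all tested genes) and 15 for the diet in controls (9 higher, 6 lower, beside 37.7%). Dbp, whose level follows the time of day, measured 0.858 ± 0.301 CPM in chow-fed controls, 6.89 ± 0.521 in HFD-fed controls, 4.89 ± 0.214 in chow-fed KO and 28.4 ± 2.16 in HFD-fed KO, and Arntl, a core clock gene, 30.7 ± 0.917, 18.6 ± 2.52, 23.8 ± 0.0796 and 13.0 ± 0.816. The group order of Dbp was that of Nr0b2, as it was for 8 of the 18 genes in all. The other 10 had other orders: Ciart, a clock repressor with the largest rise of the list in HFD-fed KO (2.29, SE 0.130), measured 0.604 ± 0.146, 3.16 ± 0.556, 7.39 ± 0.829 and 15.6 ± 0.985 CPM, with chow-fed KO above HFD-fed controls. Some of the 8 shared the order of Nr0b2 only by means within their spread. Bhlhe41 had 14 to 27 counts a group. Chow-fed controls and chow-fed KO measured 45.2 ± 2.09 and 47.3 ± 2.99 CPM for Hlf, and 20.7 ± 0.995 and 21.5 ± 0.235 for Per2. The share of all tested genes with that order was not computed. The time of day at which livers were taken is not given in the labels, Cyp7a1 and Nr0b2 are known to vary over the day, and the part of this in their differences was not tested.

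Of 11 male-biased liver genes, a list that holds Cyp7b1 and Slco1a1, 11 fell with HFD in controls (beside 18.9% of all tested genes) and 10 were higher in HFD-fed KO (beside 16.7%). The member Cyp7b1 is itself in both counts. Hsd3b5, a steroid dehydrogenase of male liver, measured 130.3 ± 2.48, 1.47 ± 0.419, 91.5 ± 2.49 and 28.7 ± 2.04 CPM in chow-fed controls, HFD-fed controls, chow-fed KO and HFD-fed KO, the order of the group means of Cyp7b1. Of the 10 genes of the list other than Cyp7b1, 4 had that order. The other 6 did not, among them Serpina1e, a serine protease inhibitor, which measured 4063 ± 32.3, 493.7 ± 4.23, 6496 ± 105.9 and 2233 ± 38.0 CPM and was highest in chow-fed KO. Cyp7b1 measured 220.6 ± 3.96 CPM in chow-fed controls and 219.2 ± 5.26 in chow-fed KO, so the order of its chow groups lay within their spread. Serpina1e departed from the order of Cyp7b1 only between these chow groups, so the split of 4 and 6 rests in part on that spread. The share of all tested genes with the group order of Cyp7b1 was not computed, and the part of these genes in the result for Cyp7b1 was not tested. Of the pericentral hepatocyte genes, a list that holds Cyp7a1 and Cyp27a1, 4 of 11 tested were higher and 4 lower in HFD-fed KO (beside 16.7% and 15.6% of all tested genes), led by Cyp1a2 at 2.10. The members Cyp7a1 (0.90) and Cyp27a1 (0.62) are themselves among the 4 higher. Of 12 periportal genes 8 were higher and 2 lower, led by Cps1 at 0.59 and Aldh1b1 at -0.65.

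The tissue label was checked against marker genes. The hepatocyte markers matched in the table (7 of 8 listed) summed to 89097 to 90060 CPM in chow-fed controls, 86176 to 86456 in HFD-fed controls, 83384 to 85330 in chow-fed KO and 94643 to 99370 in HFD-fed KO. The group order of these sums was that of Nr1h4, and their part in that result was not tested. In the KO groups most of the sum was Alb, at 59513.5 CPM on chow and 69705.2 on HFD. Single markers can have another order: Cps1, also on the list, measured 3462, 1868, 2675 and 2820 CPM in the same order of groups. How many of the 7 markers share the order of the sums was not counted. Of these 7 hepatocyte markers, 6 were higher and 1 lower in HFD-fed KO than in HFD-fed controls (beside 16.7% and 15.6% of all tested genes). Cholangiocyte markers (10 genes) summed to 85.6 to 91.1, 105 to 109.6, 230.2 to 243 and 96.9 to 104 CPM in that order of groups. Most of that sum was Spp1, at 39.3 ± 3.39, 36.5 ± 1.58, 153.9 ± 7.04 and 23.3 ± 1.05 CPM, and Slc10a2. The other 8 summed to 18.4 to 21.0 CPM in chow-fed KO and to 13.4 to 19.5 CPM in the other groups. Of 8 tested cholangiocyte markers, 3 were higher in KO on chow, 1 was lower (Krt23, at 0.728 ± 0.293 against 1.83 ± 0.134 CPM) and 4 were not called. Of all tested genes, 15.8% were higher and 15.3% lower there. Kupffer cell markers (8 genes) summed to 125 to 128, 134 to 138, 311 to 322 and 189 to 199.8 CPM, and neutrophil markers (7 genes) to 14.6 to 15.2, 0.732 to 1.08, 42.1 to 46.1 and 5.12 to 5.79 CPM. Chow-fed KO, where Cyp8b1 and Slc10a1 were lowest, was thus highest in the summed Kupffer cell and neutrophil markers and in Spp1, and their part in the results was not tested. In whole liver, fewer cells of a type and less RNA per cell cannot be told apart. Between the HFD-fed groups, 5 of 8 stellate cell markers were lower in KO, 3 of 7 endothelial markers were higher and 1 lower, and 4 of 5 erythroid markers were higher and 1 lower. The shares over all tested genes were 16.7% higher and 15.6% lower. Ileal markers summed to at most 0.45 CPM, with Fabp6, Fgf15 and Alpi at 0.

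For each member the genes with the most similar pattern were sought among 7624 genes of at least 10 CPM, by Pearson's r of log2 CPM over the 12 libraries. These are descriptions over 4 groups of 3 libraries that share their scaling. Cyp7b1 was closest to Serpina3k (r = 0.999), a serine protease inhibitor, and Mup7 (0.995), a major urinary protein, and Cyp27a1 to Thrsp (0.999), a lipogenic gene. Nr0b2 was closest to the clock repressor Nr1d1 (0.992), to N4bp2l1 (0.988) and to Tef (0.987). Abcb11 followed Ces3b (0.996) and Cps1 (0.995), Slc10a1 followed Gstt3 (0.988), and Cyp8b1 followed Mme and Lactb2 (0.989 and 0.988). Cyp7a1 was closest to the ribosomal protein genes Rpl3 (0.989), Rps26 (0.988) and Rps23 (0.977). The lowest leading values were those of Nr1h4 with Nit2 (0.97) and Baat with Anp32a (0.966).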

How the data were processed

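TRIzol-extracted liver RNA went into Illumina libraries, per the labels' protocols. Raw counts per gene of 12 libraries, as deposited, were all used; that they are counts was read from the values, which are whole numbers with unlike totals. Per the submitters' processing notes, Bowtie 0.12.2 and mm8 were used. No source used here names the counting program, the annotation or the use of strand. GENCODE M21 paired 53274 of 53465 IDs with a symbol, and the rest took up to 0.0379% of the counts in a library. Because these IDs are of an annotation later than mm8, coordinates are given for RefSeq promoters alone, in GRCm38.p6.

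Genes were filtered (filterByExpr by group), scaled by TMM and fitted over the 4 groups in one quasi-likelihood model without covariates in edgeR 4.0.16 (R 4.3.3), in place of fitting pairs of groups, since 3 libraries a group give little alone. The SE of a log2 fold change is its size over the square root of F. CPM per kb uses the union exon length of M21. The ratio test used SciPy 1.17.1. The models were tested on simulated counts first. Libraries of a group differed by more than sampling noise in all 12 pairs (median chi-square 1.59 to 2.34 times its expectation), so none repeats another. That cannot tell separate animals from technical preparations. Each library was taken as 1 replicate. The limit for a count of 0 covers counting error only.

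The members and the gene lists were chosen with earlier results of these data known. Named genes were the members, Pld1 and, of each pathway list, the called genes of largest fold in each direction (up to 4), of at least 5 CPM and without overlap between groups, for KO against control on HFD and for the diet in controls; 2 each for the clock, male-biased and zonal lists; and the 3 genes most correlated with a member. Genes named by 1 comparison are also given in others. Fgf15, Gpbar1, Vdr, Slc51a, Slc51b, Spp1, Krt23, Alb, Fabp6 and Alpi were named after their values were seen. Alternatives were other filters, scalings and tests (DESeq2 1.42.0, limma-voom 3.58.1), a length and GC trend, a fixed coefficient of variation of 20%, a fold of 1.5, a replicate block and leaving out each library.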

Additional observations from a re-analysis of the deposited data

Results flagged for a closer look

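The difference between KO and control livers was not the same on HFD as on chow for each of the 9 tested members, by the interaction term of the edgeR model with Benjamini-Hochberg adjustment over all tested genes. The interaction, as the log2 fold change on HFD minus that on chow, was 0.86 for Cyp7a1, 1.12 for Cyp7b1, 0.53 for Cyp8b1, 0.66 for Cyp27a1, 0.29 for Baat, 0.39 for Nr1h4, 0.29 for Nr0b2, 0.56 for Abcb11 and 0.72 for Slc10a1. It was of the same sign and past the threshold without any 1 of the 12 libraries for all 9. With the coefficient of variation fixed at 20%, Cyp7b1 alone passed.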

How the results depend on the processing

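Leaving out each library changed the number of members called to 8 to 9 for the diet in controls and to 5 to 7 for KO on HFD against control on chow; it stayed at 8 for KO against control on HFD, 6 on chow, 7 for the diet in KO and 9 for the interaction. A coefficient of variation fixed at 20% left 2 members for KO against control on HFD, 2 for the diet in controls, 1 for KO against control on chow, 2 for the diet in KO, 1 for KO on HFD against control on chow and 1 for the interaction, and a fold of at least 1.5 left 3, 3, 1, 2, 1 and 4 in that order. With the fixed coefficient 534 genes in place of 4784 passed for KO against control on HFD. The labels give the groups the same replicate numbers, but the deviations of same-numbered libraries did not go together (r from -0.021 to 0.0245 over 18 pairs). No shared pattern was thus seen, which cannot show that the numbers carry no pairing. With the replicate block, 8 members were called for KO against control on HFD and 9 for the diet in controls, and no member's call changed. Signs turned for 3 differences near 0, none of which passed. Cyp7a1 between the diets in KO was -0.0241 with a filter of 5 CPM, -0.00301 with upper quartile scaling, -0.00291 with the 2 groups fitted alone, -0.00170 with limma-voom, -0.000318 with DESeq2's Wald test, -0.000314 with DESeq2 size factors, and from -0.0252 to 0.0455 when single libraries were left out. Cyp7b1 between genotypes on chow was 0.00313 with a filter of 5 CPM and from -0.0231 to 0.0103 when single libraries were left out, and Abcb11 between the diets in KO was -0.0118 with that filter and from -0.000177 to 0.0215 when single libraries were left out. The ratio of Cyp8b1 to Cyp7b1 between KO on HFD and control on chow ranged from -0.0124 to 0.0446 when single libraries were left out. With a length and GC trend removed, 3 further differences passed: Cyp27a1 between genotypes on chow (-0.11), Abcb11 between the diets in KO (0.11) and Cyp7a1 between KO on HFD and control on chow (0.12). Where a call or sign changed, the cause was not tested, except that a larger fixed spread or a required fold passes fewer genes by construction. Fits of the 2 groups alone were not run for the interaction, which uses all 4. Over single genes and alternatives, 1139 results kept direction and side of the threshold, 73 no longer passed, 5 newly passed and 16 changed sign. Depth limits the pathway genes with few counts, which were not tested.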
